A study of Mus musculus with 12 samples.

Results

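The 8 genes described here, Plaur, Slpi, P2ry13, Nucb2, Lair1, Adap1, Anxa6 and Kcnq1ot1, were chosen by measured values: of the 56980 genes in the deposited table they had been picked because their difference between asGM1+ and asGM1- cells changed with the tumour. asGM1 is asialo-GM1, a glycosphingolipid of the cell surface by which the sorted cells were divided. RNA was sequenced in bulk from cells of mouse tumours in 4 groups of 3 libraries: asGM1+ cells of Flt3L Panc02 tumours, asGM1- cells of Flt3L Panc02 tumours, asGM1+ cells of Panc02 tumours and asGM1- cells of Panc02 tumours. Panc02 is a mouse pancreatic cancer cell line, and Flt3L Panc02 is the same line made to express Flt3 ligand, the growth factor on which dendritic cells depend. All mice were wild type C57BL/6J, and all cells were sorted as DAPI- CD45.2+ CD8+ before the split by asGM1. The question stated for the series is what asGM1 on CD8+ T cells means biologically, and its title adds the response to Flt3L made in the tumour. The labels name no T cell receptor marker in the sort, no age or sex of the mice, and do not say whether replicates came from separate mice, so p-values measure the spread between these libraries, which may be technical.

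All 8 genes passed the filter on low counts, which kept 20411 genes. Library totals lay between 98663008 and 102896605 deposited counts, and small values step by about 2.71 counts, taken as the worth of 1 sequenced fragment. Checked against the CD8+ T cell label, the libraries held Cd3e, a chain of the T cell receptor complex, at 614.2 to 1412 CPM (counts scaled to library size) and Cd8a at 1569 to 2562 CPM in the 12 libraries. Siglech, a surface lectin by which mouse plasmacytoid dendritic cells are known, was also present, at 4.56, 2.33 and 1.60 CPM in asGM1+ cells of Flt3L Panc02 tumours, against 289.9, 262.5 and 252.9 CPM in asGM1- cells of the same tumours. In Panc02 tumours Siglech stood at 1.75, 3.10 and 0.0901 CPM in asGM1+ cells, against 70.1, 40.4 and 43.0 CPM in asGM1- cells. The first Panc02 asGM1+ library stood apart in the other direction: its summed level of 16 macrophage and monocyte genes was 3349 CPM, against 1763 and 913.5 CPM in the other Panc02 asGM1+ libraries. Since the samples are bulk RNA, more cells of a type and more RNA per cell cannot be told apart in any value below.

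As background, the 8 genes have no pathway in common. Plaur, P2ry13 and Lair1 encode receptors of the cell surface: Plaur the urokinase receptor, which gathers plasminogen activation at the membrane, P2ry13 a receptor for extracellular ADP, and Lair1 an inhibitory receptor for collagen. Slpi and Nucb2 encode proteins of the secretory route, Slpi a secreted inhibitor of neutrophil serine proteases and Nucb2 a calcium-binding protein that is also the precursor of nesfatin-1. Adap1 and Anxa6 encode proteins that bind the inner face of membranes, Adap1 a GTPase-activating protein for ARF GTPases and Anxa6 an annexin. Kcnq1ot1 is a long noncoding RNA, transcribed from the paternal allele against the direction of Kcnq1, that silences imprinted genes around it. Plaur, P2ry13 and Slpi are textbook genes of myeloid and dendritic cells rather than of resting CD8+ T cells. Some mouse dendritic cells, plasmacytoid ones among them, carry CD8 alpha.

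Because 5 of the genes moved together, their promoters were set side by side with that of Adap1, which moved the other way, and searched for motifs of factors known in these lineages. The windows run from 250 bases before to 50 bases after each annotated start, 5′ to 3′ on the gene's strand, from RefSeq on GRCm38.p6, which is not the build of the deposited table. Entries matched 7 of the 8 genes by symbol. Capitals mark GAGGAA, the core of sites for PU.1, the ETS factor of myeloid and dendritic cells, CAGGTG, an E-box read by E proteins such as Tcf4, and TGANTCA, the AP-1 site, each on either strand. The windows are chr7:24462233-24462532 (plus strand) for Plaur, chr2:164356458-164356757 (minus) for Slpi, chr3:59210833-59211132 (minus) for P2ry13, chr7:116504119-116504418 (plus) for Nucb2, chr7:4063155-4063454 (minus) for Lair1 and chr5:139325415-139325714 (minus) for Adap1.
Plaur: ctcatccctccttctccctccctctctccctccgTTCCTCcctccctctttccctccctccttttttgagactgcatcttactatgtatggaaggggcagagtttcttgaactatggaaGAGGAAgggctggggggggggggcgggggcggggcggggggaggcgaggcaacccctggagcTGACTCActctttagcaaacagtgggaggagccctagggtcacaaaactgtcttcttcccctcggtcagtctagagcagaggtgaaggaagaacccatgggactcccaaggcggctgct
P2ry13: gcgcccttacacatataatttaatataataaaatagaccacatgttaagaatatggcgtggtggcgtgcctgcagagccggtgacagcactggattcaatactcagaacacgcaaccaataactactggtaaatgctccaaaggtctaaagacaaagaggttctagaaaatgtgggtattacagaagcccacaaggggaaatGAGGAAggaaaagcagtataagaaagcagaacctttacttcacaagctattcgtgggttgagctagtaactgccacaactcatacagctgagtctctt
Lair1: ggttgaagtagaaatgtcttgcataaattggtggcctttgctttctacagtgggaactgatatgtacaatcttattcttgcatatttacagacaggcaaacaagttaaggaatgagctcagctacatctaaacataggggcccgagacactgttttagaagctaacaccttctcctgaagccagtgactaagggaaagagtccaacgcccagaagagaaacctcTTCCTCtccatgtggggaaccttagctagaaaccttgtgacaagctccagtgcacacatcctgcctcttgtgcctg
Slpi: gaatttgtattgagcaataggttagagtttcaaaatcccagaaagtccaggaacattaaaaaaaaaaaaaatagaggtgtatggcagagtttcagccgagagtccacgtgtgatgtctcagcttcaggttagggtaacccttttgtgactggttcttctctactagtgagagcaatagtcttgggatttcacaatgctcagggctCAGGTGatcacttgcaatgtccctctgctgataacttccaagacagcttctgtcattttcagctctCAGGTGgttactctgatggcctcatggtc
Nucb2: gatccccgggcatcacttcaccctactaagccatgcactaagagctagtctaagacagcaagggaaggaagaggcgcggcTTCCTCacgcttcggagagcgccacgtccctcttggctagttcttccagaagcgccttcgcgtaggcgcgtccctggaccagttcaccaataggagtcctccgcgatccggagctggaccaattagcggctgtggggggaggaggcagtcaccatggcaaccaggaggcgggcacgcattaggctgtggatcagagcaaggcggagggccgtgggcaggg
Adap1: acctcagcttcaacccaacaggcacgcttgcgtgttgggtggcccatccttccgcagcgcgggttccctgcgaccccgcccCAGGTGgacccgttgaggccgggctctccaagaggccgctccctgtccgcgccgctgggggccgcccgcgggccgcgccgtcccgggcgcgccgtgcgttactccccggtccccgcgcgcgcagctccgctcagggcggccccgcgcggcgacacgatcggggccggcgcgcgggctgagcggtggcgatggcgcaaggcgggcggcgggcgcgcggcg
No 2 marked motifs overlap. GAGGAA is found in the windows of Plaur (2 matches), P2ry13 (1), Lair1 (1) and Nucb2 (1), and in that of Kcnq1ot1 (3, not printed), but not in those of Slpi and Adap1. CAGGTG is found in the windows of Slpi (2) and Adap1 (1), and TGANTCA only in that of Plaur (1) among the 7 windows. Of 32851 windows of the same length, 28.3% hold GAGGAA, 20.2% hold CAGGTG and 7.81% hold TGANTCA, and a match is a description of the letters only. The Adap1 window is the richest in G and C, at 79% of bases, against 42.3% for P2ry13 and 59.3% for Plaur.

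Among the surface receptors, Plaur, P2ry13 and Lair1 shared a pattern: lowest in asGM1+ cells of Flt3L Panc02 tumours, highest in asGM1- cells of Flt3L Panc02 tumours, and between these in both gates of Panc02 tumours. Plaur stood at 4.04, 3.93 and 4.81 CPM in asGM1+ cells of Flt3L Panc02 tumours, against 68.1, 68.7 and 57.8 CPM in asGM1- cells of these tumours. In Panc02 tumours Plaur was at 13.95, 12.4 and 6.66 CPM in asGM1+ cells, against 17.7, 13.96 and 14.7 CPM in asGM1- cells. The Flt3L Panc02 groups lie far apart, and in Panc02 tumours the highest asGM1+ library falls just under the lowest asGM1- library.

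The asGM1+ cells of Flt3L Panc02 tumours had 1.40, 0.920 and 0.809 CPM of P2ry13, against 19.9, 15.6 and 16.2 CPM in asGM1- cells. For Panc02 tumours the P2ry13 values were 4.94, 6.87 and 2.56 CPM in asGM1+ cells, against 7.84, 7.18 and 4.998 CPM in asGM1- cells. The Panc02 groups overlap and the Flt3L Panc02 groups do not. Its lowest library was still above the floor of 3 fragments, at most 0.0901 CPM. Lair1 was at 13.6, 14.2 and 15.4 CPM in asGM1+ cells of Flt3L Panc02 tumours, against 101.3, 86.3 and 90.2 CPM in asGM1- cells. Panc02 tumours gave 37.1, 25.2 and 15.5 CPM of Lair1 in asGM1+ cells, against 41.1, 32.9 and 31.7 CPM in asGM1- cells. These Panc02 groups overlap, since the first asGM1+ library lies within the asGM1- values, while the third lies at the level of the Flt3L Panc02 asGM1+ libraries.

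On the log2 scale of the edgeR model, the difference of asGM1+ over asGM1- cells in Flt3L Panc02 tumours was -3.93 ± 0.25 (SE) for Plaur, -4.04 ± 0.37 for P2ry13 and -2.68 ± 0.26 for Lair1. In Panc02 tumours the same differences were -0.49 ± 0.23, -0.48 ± 0.33 and -0.44 ± 0.24 for these 3 genes in that order. The first set corresponds to levels 15.2, 16.5 and 6.42 times lower in asGM1+ cells. Every such difference was part of what chose the genes and is given as a description, with no test.

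The 2 genes of the secretory route had the same order of groups. Slpi read 1.46, 1.23 and 2.03 CPM in asGM1+ cells of Flt3L Panc02 tumours, against 13.5, 10.97 and 12.2 CPM in asGM1- cells. In Panc02 tumours Slpi values of 5.49, 3.84 and 3.53 CPM in asGM1+ cells bracketed the 4.37, 4.53 and 4.99 CPM in asGM1- cells. So the gates overlap fully in Panc02 tumours, and the fitted differences were -2.96 ± 0.24 on the log2 scale in Flt3L Panc02 tumours and -0.11 ± 0.22 in Panc02 tumours. Nucb2 read 3.37, 2.56 and 2.57 CPM in asGM1+ cells of Flt3L Panc02 tumours, against 31.3, 25.7 and 27.2 CPM in asGM1- cells. Its Panc02 values were 8.10, 5.18 and 3.74 CPM in asGM1+ cells and 10.6, 8.78 and 7.08 CPM in asGM1- cells. The gate difference of Nucb2 was -3.31 ± 0.28 on the log2 scale in Flt3L Panc02 tumours and -0.63 ± 0.26 in Panc02 tumours, where the groups overlap.

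Adap1 and Anxa6 ran the other way in Flt3L Panc02 tumours, with smaller differences. Adap1 was at 149.8, 151.8 and 155 CPM in asGM1+ cells of Flt3L Panc02 tumours, against 48.7, 60.2 and 64.8 CPM in asGM1- cells. Its Panc02 levels were 101.9, 106.1 and 131.5 CPM in asGM1+ cells and 96.3, 113.1 and 109.8 CPM in asGM1- cells, which overlap. The lowest Adap1 levels were thus those of asGM1- cells of Flt3L Panc02 tumours, and the gate difference was 1.39 ± 0.13 on the log2 scale there and 0.09 ± 0.13 in Panc02 tumours. Anxa6 was at 1937, 2135 and 2220.0 CPM in asGM1+ cells of Flt3L Panc02 tumours, against 1195, 1318 and 1484 CPM in asGM1- cells. Panc02 tumours gave 1409, 1466 and 1694 CPM of Anxa6 in asGM1+ cells and 1672, 1724 and 1878 CPM in asGM1- cells. For Anxa6 the sign turned: the gate difference was 0.65 ± 0.11 on the log2 scale in Flt3L Panc02 tumours and -0.21 ± 0.11 in Panc02 tumours, where the groups overlap.

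Kcnq1ot1 stood at 7.70, 8.68 and 7.49 CPM in asGM1+ cells of Flt3L Panc02 tumours, against 22.6, 21.8 and 17.3 CPM in asGM1- cells. In Panc02 tumours Kcnq1ot1 was at 11.6, 11.4 and 10.5 CPM in asGM1+ cells and 10.97, 7.77 and 8.995 CPM in asGM1- cells. Only asGM1- cells of Flt3L Panc02 tumours stood clear of all other libraries, and asGM1+ cells of Flt3L Panc02 tumours overlapped with asGM1- cells of Panc02 tumours. The gate difference was -1.37 ± 0.16 on the log2 scale in Flt3L Panc02 tumours and 0.27 ± 0.16 in Panc02 tumours, again of opposite sign. Kcnq1, the gene it overlaps on the other strand, had 0 to 63 counts per library and no counts in 7 of the 12, and since the labels do not say whether strand was kept, reads of the pair cannot be told apart.

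**Figure D1:**
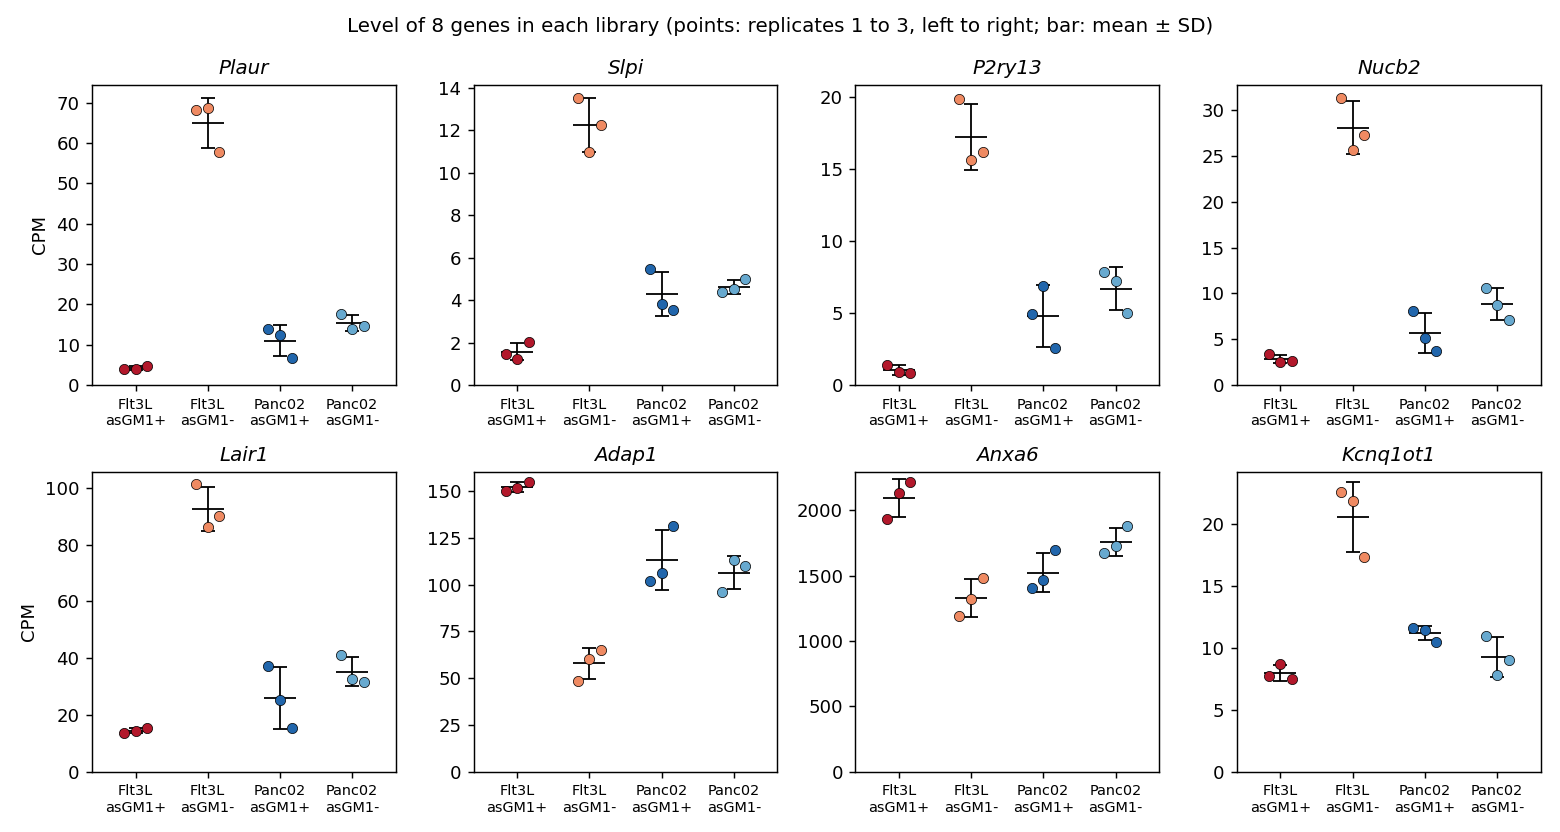
Level in CPM (y axis, a linear scale from 0 of its own for each gene) of the 8 genes in the 12 libraries, by tumour and gate, with Flt3L standing for Flt3L Panc02. Points are replicates 1 to 3, the long bar is the group mean and the whiskers are ± SD (n = 3). For Plaur, Slpi, P2ry13, Nucb2, Lair1 and Kcnq1ot1 the asGM1- libraries of Flt3L Panc02 tumours are the highest, and for Adap1 they are the lowest.

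Set over the groups, the levels of Plaur, Slpi, P2ry13, Nucb2 and Lair1 fell in 1 order by their means: asGM1- cells of Flt3L Panc02 tumours, asGM1- cells of Panc02 tumours, asGM1+ cells of Panc02 tumours, and asGM1+ cells of Flt3L Panc02 tumours. Group means of Plaur were 4.26 ± 0.48, 64.9 ± 6.15, 10.99 ± 3.84 and 15.5 ± 1.96 CPM (SD, n = 3 each) in asGM1+ and asGM1- cells of Flt3L Panc02 tumours and asGM1+ and asGM1- cells of Panc02 tumours. The middle pair, the Panc02 gates, overlapped for 4 of these 5 genes, with Plaur as the exception. Adap1 averaged 152.2 ± 2.62, 57.9 ± 8.32, 113.2 ± 16.0 and 106.4 ± 8.95 CPM in the same groups, and Kcnq1ot1 7.96 ± 0.632, 20.6 ± 2.83, 11.2 ± 0.568 and 9.25 ± 1.62 CPM.

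Counted by overlap, the asGM1+ and asGM1- libraries of Flt3L Panc02 tumours were separate for all 8 genes, 6 lower and 2 higher in asGM1+ cells, as they were for 28.7% of the 20411 genes tested. edgeR's quasi-likelihood test, a stricter criterion, called 8.59% of genes there (Benjamini-Hochberg adjusted p under 0.05), 5.83% lower and 2.77% higher. The Panc02 gates were separate for Plaur among the 8, and for 17.6% of all genes, while edgeR called 0.892%, 0.843% lower and 0.0490% higher. Read by replicate number, Plaur, P2ry13, Nucb2, Lair1 and Anxa6 were lower in the asGM1+ library of each Panc02 number and Kcnq1ot1 was higher in each, while Slpi and Adap1 had mixed signs. Between tumours, Flt3L Panc02 libraries were separate from Panc02 libraries for all 8 genes within asGM1+ cells, beside 30.7% of all genes (edgeR called 6.25%, 4.20% lower and 2.05% higher). They were also separate for all 8 within asGM1- cells, beside 26.6% of all genes (edgeR called 3.70%, 1.84% lower and 1.86% higher). In asGM1+ cells 6 of the 8 were lower in Flt3L Panc02 tumours, and in asGM1- cells the same 6 were higher. These comparisons share libraries and chose the genes, so nothing is read from the counts. As an example of the opposed directions, Plaur differed by -1.37 ± 0.23 (log2, Flt3L Panc02 over Panc02) in asGM1+ cells and by 2.07 ± 0.23 in asGM1- cells, and Adap1 by 0.43 ± 0.13 and -0.88 ± 0.13.

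The interaction, the gate difference in Flt3L Panc02 tumours minus that in Panc02 tumours, lay between -3.56 for P2ry13 and -1.64 for Kcnq1ot1 in the 6 genes that were lower, and was 1.30 for Adap1 and 0.86 for Anxa6. edgeR called 0.367% of genes on this contrast, 68 lower (0.333%) and 7 higher (0.0343%).

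**Figure D2:**
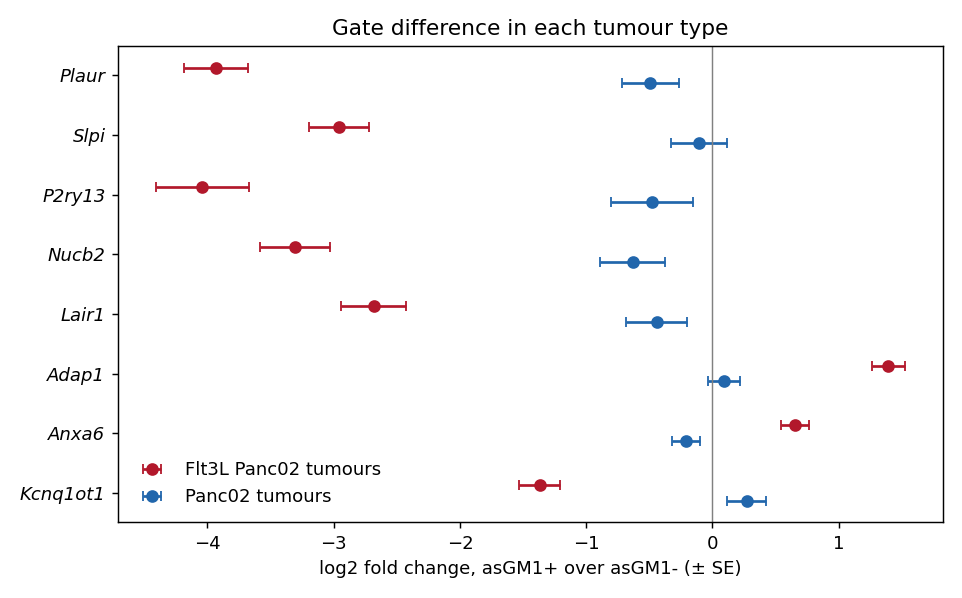
Gate difference of each gene, as the edgeR log2 fold change of asGM1+ over asGM1- cells (x axis, ± SE), in Flt3L Panc02 tumours (red) and in Panc02 tumours (blue). For Plaur, P2ry13, Nucb2, Slpi and Lair1 the red points lie between -4.04 and -2.68 and the blue ones between -0.63 and -0.11.

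Averaged over both tumours (the mean gate difference), the gate difference lay between -2.26 ± 0.24 (SE, log2) for P2ry13 and -0.55 ± 0.11 for Kcnq1ot1 in the 6 genes that were lower in asGM1+ cells of Flt3L Panc02 tumours, and was 0.74 ± 0.09 for Adap1 and 0.22 ± 0.08 for Anxa6. For Plaur it was -2.21 ± 0.17, with means of 7.62 CPM in asGM1+ and 40.2 CPM in asGM1- cells (n = 6 libraries each). This mean is made of the same differences that chose the genes, and a large difference in Flt3L Panc02 tumours alone sets it, so it is a description with no test. By count, 7 of the 8 genes passed edgeR's threshold on it, where 6.19% of all genes did, 4.51% lower and 1.68% higher, and nothing is read from that count.

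Averaged over both gates (the mean tumour difference), the difference of Flt3L Panc02 over Panc02 tumours ran from -0.42 ± 0.23 (log2) for P2ry13 to 0.35 ± 0.16 for Plaur. These values are averages over gates that differed in opposite directions, and they too are made of differences that chose the genes. On this mean edgeR called 0 of the 8 genes, with 3 at an unadjusted p under 0.05, and DESeq2 and limma-voom each called 1, Kcnq1ot1, where edgeR called 11.3% of all genes, 7.26% lower and 4.08% higher.

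Beside these values stand the markers of cells that the CD8+ gate could hold besides CD8+ T cells. All 12 genes of the plasmacytoid dendritic cell list were measured, and their summed level was 207.9 to 240.8 CPM in asGM1+ and 982.9 to 1104 CPM in asGM1- cells of Flt3L Panc02 tumours. In Panc02 tumours that sum was 170.5 to 197.9 CPM in asGM1+ cells and 344.9 to 391.9 CPM in asGM1- cells. Pacsin1, Runx2 and Cobll1 made up most of the sum in asGM1+ cells, at means of 102.4, 92.8 and 17.02 CPM in asGM1+ cells of Flt3L Panc02 tumours, against 153.5, 94.2 and 13.4 CPM in asGM1- cells, a far smaller contrast than that of Siglech. The 11 genes of conventional dendritic cells summed to 21.96 to 31.9 CPM in asGM1+ and 116.2 to 127 CPM in asGM1- cells of Flt3L Panc02 tumours, and in Panc02 tumours to 23.0 to 57.9 CPM in asGM1+ and 47.5 to 74.4 CPM in asGM1- cells. Both lists have their highest sums in the libraries where Plaur, P2ry13, Lair1, Slpi and Nucb2 are highest, and their part in the result was not tested.

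Of the 12 plasmacytoid genes, 9 were called lower in asGM1+ cells of each tumour type, beside 5.83% of all genes in Flt3L Panc02 and 0.843% in Panc02 tumours, and 1 was lower on the interaction, beside 0.333%. Of the 11 conventional dendritic cell genes, 6 were called lower in asGM1+ cells of Flt3L Panc02 tumours and 1 in Panc02 tumours, beside the same shares of 5.83% and 0.843%. Flt3, the receptor for Flt3L, was at 1.03, 1.41 and 0.621 CPM in asGM1+ cells of Flt3L Panc02 tumours, against 25.3, 30.8 and 25.8 CPM in asGM1- cells. The Panc02 values of Flt3 were 2.10, 1.27 and 0.240 CPM in asGM1+ cells, against 9.42, 6.90 and 5.53 CPM in asGM1- cells, so its gates do not overlap in either tumour.

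In the asGM1+ cells of Panc02 tumours, several of the 5 genes varied between replicates in the order of the macrophage markers. Csf1r, the receptor for macrophage colony-stimulating factor, was at 102, 73.7 and 33.2 CPM in replicates 1, 2 and 3 of asGM1+ cells of Panc02 tumours. In the same libraries Plaur, Slpi, Nucb2 and Lair1 are each highest in replicate 1 and lowest in replicate 3, while P2ry13 is highest in replicate 2 and lowest in replicate 3. The summed levels of the conventional dendritic list (57.9, 40.3 and 22.97 CPM), the mast cell and basophil list (37.3, 11.2 and 6.21 CPM) and the tumour epithelial list (153.5, 111.2 and 85.4 CPM) stand in that order too. Over groups, the 16 macrophage and monocyte genes summed to 710.2 to 963.8 CPM in asGM1+ and 456.3 to 689.1 CPM in asGM1- cells of Flt3L Panc02 tumours. Members of that list differ there: edgeR called 1 higher and 2 lower in asGM1+ cells, and Cybb averaged 9.02 CPM in asGM1+ and 65.99 CPM in asGM1- cells, Cd68 33.5 and 73.2 CPM, but Lyz2 172.3 and 92.2 CPM (3 genes named after their values were seen). The Panc02 sums were 913.5 to 3349 CPM in asGM1+ and 812.1 to 1340.0 CPM in asGM1- cells. C1qa, a complement gene of tissue macrophages, was at 141.1, 79.6 and 46.1 CPM in asGM1+ cells of Panc02 tumours, against 58.3, 44.8 and 33.1 CPM in asGM1- cells, ranges that overlap. The part of these markers in the Panc02 values of the 5 genes was not tested.

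Genes of gamma delta T cells, 8 measured of 9 listed, had separate sums by gate in both tumours. They summed to 13.5 to 19.03 CPM in asGM1+ and 61.6 to 94.9 CPM in asGM1- cells of Flt3L Panc02 tumours. In Panc02 tumours the sums were 6.04 to 18.6 CPM in asGM1+ and 29.2 to 45.3 CPM in asGM1- cells. Trgc1 was the largest part of the asGM1- sums, at means of 44.3 CPM in Flt3L Panc02 and 20.4 CPM in Panc02 tumours. Trdc, the delta chain gene, averaged 2.11 CPM in asGM1+ and 12.7 CPM in asGM1- cells of Flt3L Panc02 tumours. Its Panc02 means were 5.15 and 4.81 CPM. edgeR called 5 of the 8 lower in asGM1+ cells of Flt3L Panc02 and 4 in Panc02 tumours, beside 5.83% and 0.843% of all genes. Neutrophil genes, of interest because Slpi and Plaur are well known from neutrophils, summed to 35.8 to 89.8 CPM in asGM1+ and 32.9 to 77.6 CPM in asGM1- cells of Flt3L Panc02 tumours, and to 100 to 184.6 CPM in asGM1+ and 99.7 to 229 CPM in asGM1- cells of Panc02 tumours, with gates that overlap in both. Il1r2 made up most of the neutrophil sum. It averaged 38.3 CPM in asGM1+ and 39.97 CPM in asGM1- cells of Flt3L Panc02 tumours. The Panc02 means of Il1r2 were 94.3 CPM in asGM1+ and 145.8 CPM in asGM1- cells. S100a8, the defining neutrophil gene of the list, was at 0.887 to 1.41 CPM in asGM1+ and 0.268 to 0.924 CPM in asGM1- cells of Flt3L Panc02 tumours, and at 1.34 to 2.31 CPM in asGM1+ and 0.464 to 0.789 CPM in asGM1- cells of Panc02 tumours. The B and plasma cell list summed to 8.51 to 12.5 CPM in asGM1+ and 23.9 to 36.96 CPM in asGM1- cells of Flt3L Panc02 tumours, and to 5.84 to 14.3 CPM in asGM1+ and 13.2 to 16.8 CPM in asGM1- cells of Panc02 tumours, where the gates overlap. Most of that sum was Cd79b, at means of 9.81 CPM in asGM1+ and 28.4 CPM in asGM1- cells of Flt3L Panc02 tumours, while Ms4a1, another B cell gene, was at 0 in 10 of 12 libraries. The part of these lists in the values of the 8 genes was not tested.

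Adap1 and Anxa6 were also set beside the T cell genes, and their cell of origin was not tested. The 14 T cell identity genes summed to 14060 to 17700 CPM in asGM1+ and 11240 to 12580 CPM in asGM1- cells of Flt3L Panc02 tumours, and to 10270 to 12400 CPM in asGM1+ and 10850 to 13770 CPM in asGM1- cells of Panc02 tumours. Both this sum and Anxa6 were highest in asGM1+ cells of Flt3L Panc02 tumours, while the other groups fell in different orders. Per 100 CPM of this list, Anxa6 stood at 13.3 ± 0.689 CPM in asGM1+ and 11.02 ± 1.32 CPM in asGM1- cells of Flt3L Panc02 tumours, and at 13.7 ± 0.0346 and 14.2 ± 1.01 CPM in asGM1+ and asGM1- cells of Panc02 tumours (SD, n = 3 each). Adap1 stood at 0.971 ± 0.0947 and 0.480 ± 0.0810 CPM per 100 CPM in asGM1+ and asGM1- cells of Flt3L Panc02 tumours, and at 1.02 ± 0.0393 and 0.861 ± 0.0550 CPM in those of Panc02 tumours. Both genes were lowest in asGM1- cells of Flt3L Panc02 tumours on this scale too, by the group means.

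**Figure D3:**
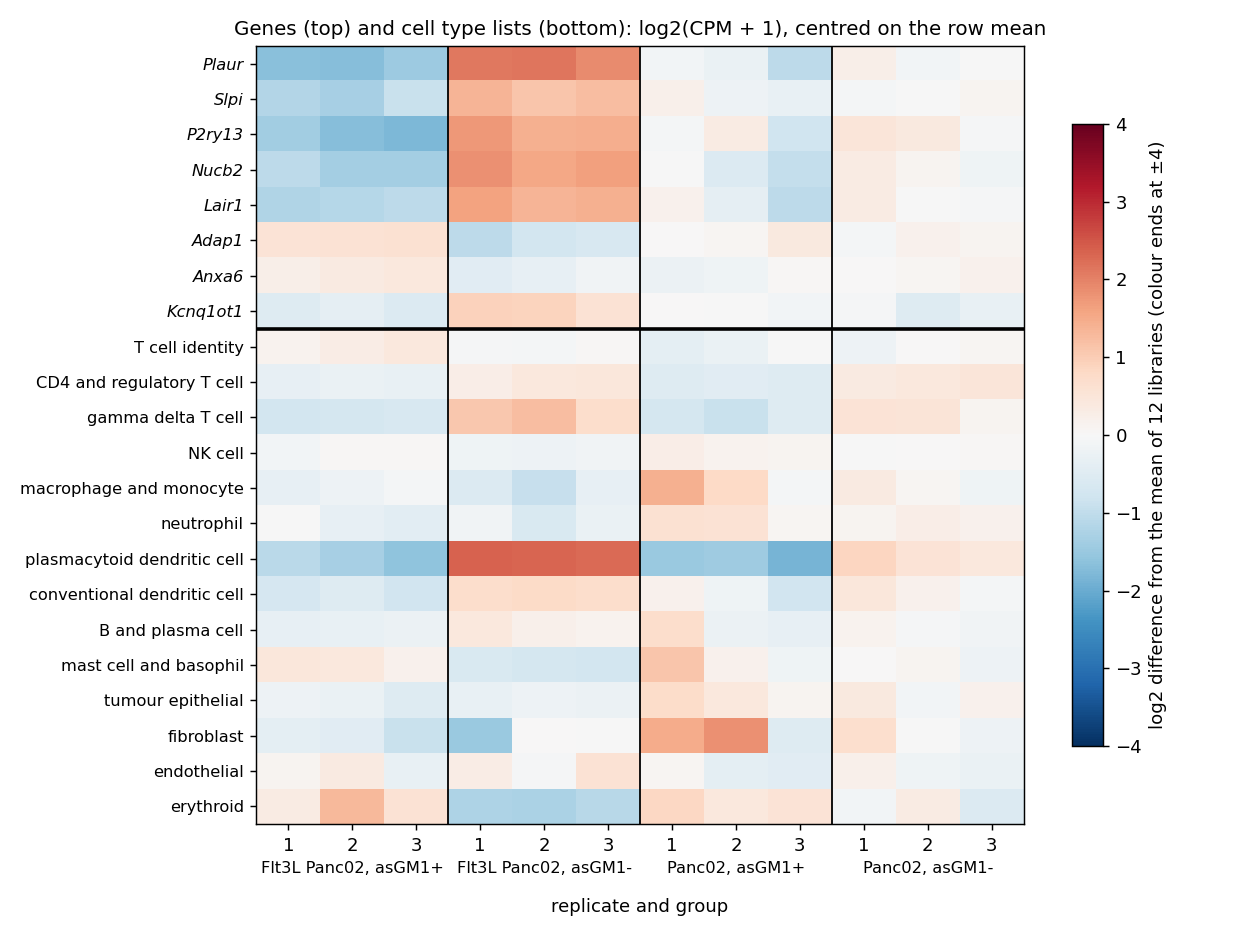
Profiles of the 8 genes (top) and of 14 cell type lists (bottom, mean over the genes of a list) over the 12 libraries, as log2(CPM + 1) minus the mean of the row, from blue (below the row's mean) to red (above). The asGM1- libraries of Flt3L Panc02 tumours are red for Plaur, Slpi, P2ry13, Nucb2, Lair1 and Kcnq1ot1 and for the plasmacytoid, conventional dendritic and gamma delta lists, while in the asGM1+ libraries of Panc02 tumours the plasmacytoid row is between -1.86 and -1.43 and that of Plaur between -1.06 and -0.09.

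Likeness of profiles was measured as the root mean square difference of centred log2(CPM + 1) over the 12 libraries, among the 9426 genes that averaged 5 CPM or more, and is a description with no test. The genes nearest to Plaur were Ctsl (0.259), a lysosomal protease, Pld4 (0.282), a lysosomal exonuclease of dendritic cells, Lefty1 (0.324), Tcf4 (0.33), the factor on which plasmacytoid dendritic cells depend, and Cfp (0.363), the complement protein properdin. Ctsl averaged 7.29 ± 0.593 CPM in asGM1+ and 80.9 ± 10.6 CPM in asGM1- cells of Flt3L Panc02 tumours, and 19.7 ± 10.2 CPM in asGM1+ and 27.5 ± 3.45 CPM in asGM1- cells of Panc02 tumours. Tcf4 averaged 5.70 ± 1.64 CPM in asGM1+ and 62.5 ± 10.8 CPM in asGM1- cells of Flt3L Panc02 tumours. Its Panc02 means were 13.55 ± 6.63 CPM in asGM1+ and 18.4 ± 6.3 CPM in asGM1- cells. Siglech lay further apart there, at means of 1.65 CPM in asGM1+ and 51.2 CPM in asGM1- cells. P2ry13 and Nucb2 also had Ctsl and Tcf4 among their 5 nearest genes, at 0.285 and 0.344 for P2ry13 and 0.245 and 0.26 for Nucb2. Nucb2 was nearest to Csf2rb (0.208), the shared receptor chain for GM-CSF and related cytokines, and P2ry13 had Ctsh (0.369), Csf2rb (0.372) and Cybb (0.377), the phagocyte oxidase subunit, as further neighbours.

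Lair1 lay nearest to Ctsh (0.162), Ppfia4 (0.187), Tyrobp (0.233), the signalling adaptor of myeloid and NK receptors, Pld4 (0.235) and Pltp (0.237). Slpi lay nearest to Alox5ap (0.259), needed for leukotriene synthesis, and then to Tyrobp (0.316), Lrp8 (0.337), Gpr35 (0.351) and Grn (0.357). Grn encodes progranulin, a protein that SLPI binds and shields from elastase. Tyrobp averaged 33.9 ± 8.20 CPM in asGM1+ and 175.3 ± 27.4 CPM in asGM1- cells of Flt3L Panc02 tumours, and 49.8 ± 21.3 CPM in asGM1+ and 53.5 ± 6.29 CPM in asGM1- cells of Panc02 tumours. Of the 14 cell type lists, the nearest were the plasmacytoid list for Plaur (0.688), the conventional dendritic list for Slpi (0.441), P2ry13 (0.67) and Lair1 (0.468), and the gamma delta list for Nucb2 (0.548). For all 8 genes the nearest single gene was nearer than the nearest list. The gene was picked from 9426 and the list from 14, so nothing is read from this.

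The other 3 genes had other neighbours. Among the genes nearest to Adap1 were St14 (0.176), a membrane serine protease, Apobr (0.219), Plek (0.229) and Lasp1 (0.23), and among the lists the mast cell and basophil list (0.415) and the erythroid list (0.444), both low-level lists, with the T cell identity list the fourth (0.47). St14 averaged 149.7 CPM in asGM1+ and 76.5 CPM in asGM1- cells of Flt3L Panc02 tumours, and 119.2 CPM in asGM1+ and 122.3 CPM in asGM1- cells of Panc02 tumours, with SDs of 10.2 to 18 CPM (n = 3 each). Anxa6 lay nearest to Rab1b (0.0955), Psmd13 (0.0962), Vps52 (0.097), Trpv2 (0.0975) and Ciapin1 (0.1), but 8203 of the 9426 genes lay within 0.5 of it, so its flat profile singles out few genes, against 17 genes within 0.5 of Plaur. The nearest list to Anxa6 was that of T cell identity (0.182). Within 0.5 of Adap1 lay 3531 genes and within 0.5 of Kcnq1ot1 2347, so their named neighbours are few among many. Kcnq1ot1 lay nearest to Bcl2 (0.14), the survival factor, and to Plekhm3 (0.187), Dennd6b (0.187), Chd6 (0.195) and the noncoding RNA Snhg15 (0.206), and its nearest list was that of conventional dendritic cells (0.343). For Adap1, Anxa6 and Kcnq1ot1 the plasmacytoid list was the farthest of the 14, at 2.07, 1.76 and 1.27. The measure is not scaled to the range of a profile, so it does not give direction. Kcnq1ot1 and this list were both highest in asGM1- cells of Flt3L Panc02 tumours, at 0.56 to 0.93 and 2.25 to 2.37 above their means. Adap1 and Anxa6 were lowest there by group means.

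Genes known to work with each of the 8 were taken from 9 lists of 160 genes, of which 139 were tested. On the interaction edgeR called 3 of them (2.16%), all lower, beside 0.367% of all genes. On the mean gate difference 17 (12.2%) were called, 4 higher and 13 lower, beside 6.19%. The mean tumour difference held 33 (23.7%), 5 higher and 28 lower, beside 11.3%. By direction, 4.51% of all genes were called lower and 1.68% higher on the mean gate difference. On the mean tumour difference these shares were 7.26% and 4.08%. They apply to the counts of each list below. Medians over the 139 genes were 0.0378 for the mean gate, -0.0812 for the mean tumour and -0.0089 for the interaction on the log2 scale, and over all genes tested 0.0105, -0.00503 and -0.0218.

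Among the partners of the urokinase receptor, edgeR's calls lay on the mean tumour difference. Of 17 tested genes of plasminogen activation, 7 fell on it (median -0.886), beside 7.26% of all genes. None was called higher, beside 4.08%. On the mean gate difference edgeR called 0, beside 6.19% of all genes, with 4 at an unadjusted p under 0.05. DESeq2 and limma-voom each called 2 there. Plau, the urokinase that binds the receptor, fell by 1.99 ± 0.34 (log2, adjusted p = 0.0042) to means of 0.270 and 0.319 CPM in asGM1+ and asGM1- cells of Flt3L Panc02 tumours, against 1.62 and 0.838 CPM in those of Panc02 tumours. Plat, the tissue-type activator, fell by 2.14 ± 0.38 (adjusted p = 0.00491), and Lrp1, the endocytic receptor that clears these complexes, by 1.65 ± 0.28 (adjusted p = 0.0041). Plau was thus low in the asGM1- cells of Flt3L Panc02 tumours, where Plaur was highest. The macrophage genes fell on the same difference, 12 of 16 called lower beside 7.26% of all genes, and their part in these values was not tested.

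Of the nucleotide receptors and ectonucleotidases listed with P2ry13 (14 tested), 1 rose and 1 fell on the mean gate difference. Entpd1 (CD39), which removes ATP and ADP, rose by 0.88 ± 0.15 (adjusted p = 0.00397), at 166.4, 126.6 and 130.6 CPM in asGM1+ and 67.6, 46.1 and 70.7 CPM in asGM1- cells of Flt3L Panc02 tumours. In Panc02 tumours Entpd1 was at 109.7, 150.0 and 134.1 CPM in asGM1+ and 68.1, 107.4 and 93.4 CPM in asGM1- cells, so its groups do not overlap in either tumour. P2rx7, the ATP-gated channel, fell by 2.04 ± 0.41 (adjusted p = 0.0129). It averaged 0.831 CPM in asGM1+ and 8.175 CPM in asGM1- cells of Flt3L Panc02 tumours. The Panc02 means of P2rx7 were 1.90 and 3.29 CPM, and the gates overlap there. On the mean tumour difference Nt5e (CD73, which makes adenosine from AMP) rose by 0.86 ± 0.15 (adjusted p = 0.00541), P2ry10, a receptor for lysophospholipids, rose by 0.61 ± 0.13 (0.0118) and Gpr34 fell by 1.04 ± 0.15 (0.00199). Without both Panc02 libraries numbered 1 the P2ry10 call was lost (adjusted p = 0.0614).

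Around Lair1, 20 receptors with inhibitory tyrosine motifs and their phosphatases were tested. On the mean gate difference 5 fell (median -0.162), beside 4.51% of all genes. Among them were Cd300a, by 2.11 ± 0.29 (adjusted p = 0.00103), and Pecam1, by 0.91 ± 0.18 (0.0122). The Pecam1 call was lost without both Panc02 libraries numbered 1 (0.0601). Cd300a stood at 1.91, 1.99 and 1.36 CPM in asGM1+ and 13.2, 15.1 and 14.7 CPM in asGM1- cells of Flt3L Panc02 tumours, and at 2.16, 3.73 and 0.841 CPM in asGM1+ and 6.15, 4.87 and 4.44 CPM in asGM1- cells of Panc02 tumours. Siglecg fell too (adjusted p = 0.00576), at 0 to 0.240 CPM in asGM1+ and 4.24 to 5.23 CPM in asGM1- cells of Flt3L Panc02 tumours. Its Panc02 means were 0.329 CPM in asGM1+ and 0.981 CPM in asGM1- cells, and the gates overlap there. Cd300lf, an inhibitory receptor of myeloid cells, was called on the interaction, at -3.15 ± 0.49 (adjusted p = 0.0244), with 3.90, 2.02 and 2.64 CPM in asGM1+ and 19.7, 18.4 and 15.7 CPM in asGM1- cells of Flt3L Panc02 tumours, and 14.2, 13.3 and 5.49 CPM in asGM1+ and 9.71, 7.73 and 5.98 CPM in asGM1- cells of Panc02 tumours. On the mean tumour difference 2 rose and 5 fell, beside 4.08% and 7.26% of all genes. Ptpn11 (SHP-2), which Lair1 recruits, rose by 0.50 ± 0.07 (adjusted p = 0.00212). Lilrb4a and Lilrb4b, close paralogs whose reads may be split uncertainly, fell by 1.18 ± 0.16 and 0.84 ± 0.11 (0.00147 and 0.00148).

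Of the 18 genes listed with Slpi 10 were tested, protease inhibitors, their relatives and Grn, with no target protease among them, and 2 fell and 1 rose on the mean gate difference. Serpinb1a, an intracellular inhibitor of neutrophil elastase, fell by 1.51 ± 0.18 (adjusted p = 0.000436) and Grn by 0.80 ± 0.15 (0.0093), while Wfdc17, of the same whey acidic protein family as Slpi, rose by 1.57 ± 0.41 (0.0433), a call lost in 11 of 12 runs without 1 library. Grn was at 167.4, 138.9 and 143.1 CPM in asGM1+ and 430.8, 481.8 and 463 CPM in asGM1- cells of Flt3L Panc02 tumours, and at 361.7, 260.6 and 180.9 CPM in asGM1+ and 328.9, 228.8 and 235.8 CPM in asGM1- cells of Panc02 tumours, where the gates overlap as they do for Slpi. Wfdc2, of that family too, fell by 1.82 ± 0.31 on the mean tumour difference (0.00439). Of 15 secretory pathway genes tested with Nucb2, 7 fell on the mean tumour difference (median -0.308), beside 7.26% of all genes. They were led by Rcn2 (-0.33 ± 0.07, 0.0133), Calu (-0.48 ± 0.11, 0.0143) and Hsp90b1 (-0.47 ± 0.11, 0.0208). Hsp90b1 lost its call in 5 of 12 runs without 1 library, and Rcn2 and Calu without both Panc02 libraries numbered 1 (0.065 and 0.0743). The mean gate difference of that list held 1 call, Sdf2l1, higher at 0.42 ± 0.11 (0.046), lost in 9 of those 12 runs.

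Among the ARF GTPases and their regulators listed with Adap1, 2 of 28 were called higher and 1 lower in asGM1+ cells of Flt3L Panc02 tumours. Of all genes, 2.77% were called higher and 5.83% lower there, and nothing is read from the count. Arf6 averaged 540.9 CPM in asGM1+ and 344.2 CPM in asGM1- cells there (0.65 ± 0.16, log2; adjusted p = 0.0286), and Arf5 397 and 253.8 CPM (0.65 ± 0.18; adjusted p = 0.044), both in the direction of Adap1 and named after their values were seen, and the lower gene was Arap2. In Panc02 tumours Arf6 averaged 383.4 CPM in asGM1+ and 432.8 CPM in asGM1- cells, and Arf5 275 and 284.9 CPM. Of the 28, edgeR called 0 on the mean tumour difference (7 at an unadjusted p under 0.05, 2 by DESeq2, 8 by limma-voom) and 0 on the interaction (3, 1 and 1). Arap2 alone fell on the mean gate difference, by 0.48 ± 0.12 (adjusted p = 0.0409), a call lost in 7 of the 12 runs without 1 library. Of 13 annexins and S100 partners tested with Anxa6, 3 annexins fell on the mean tumour difference, beside 7.26% of all genes. They were Anxa1, by 1.65 ± 0.16 (0.000382), Anxa4, by 0.70 ± 0.12 (0.00449), and Anxa3, by 1.42 ± 0.26 (0.00559). On the mean gate difference 1 gene, S100a6, rose by 0.63 ± 0.17 (0.0447), lost in 10 of 12 such runs. S100a6 averaged 619.6 CPM in asGM1+ and 295.5 CPM in asGM1- cells of Flt3L Panc02 tumours, and 429.5 and 375.6 CPM in those of Panc02 tumours. Anxa1 was at 59.3, 51.3 and 66.9 CPM in asGM1+ and 55.5, 37.7 and 47.4 CPM in asGM1- cells of Flt3L Panc02 tumours, and at 269.9, 206.1 and 129.2 CPM in asGM1+ and 123.3, 140.5 and 140.2 CPM in asGM1- cells of Panc02 tumours, all Flt3L Panc02 libraries lying below all Panc02 libraries.

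Of 12 genes of the imprinted domain around Kcnq1ot1, 3 fell on the mean gate difference, beside 4.51% of all genes. They were Tnfrsf23, by 1.02 ± 0.23 (adjusted p = 0.0233), Tspan32, by 0.69 ± 0.17 (0.0332), and Tnfrsf22, by 0.78 ± 0.20 (0.0379). These calls were lost in 4, 8 and 9 of 12 runs without 1 library. Tnfrsf23 averaged 0.424 CPM in asGM1+ and 1.63 CPM in asGM1- cells of Flt3L Panc02 tumours, but 1.71 and 1.84 CPM in those of Panc02 tumours. Tspan32 and Tnfrsf22 were lower in asGM1+ cells of both tumour types by their means. By tumour, edgeR called 2 of the 12 lower in Flt3L Panc02 and 0 in Panc02 tumours, beside 5.83% and 0.843% of all genes. On the interaction edgeR called 0 of the 12 (1 at an unadjusted p under 0.05, 1 by DESeq2, 0 by limma-voom). Igf2, a growth factor gene of the neighbouring imprinted cluster, fell by 1.84 ± 0.29 on the mean tumour difference (0.00282), and Cd81 by 1.39 ± 0.31 (0.0148). Of 12 other long noncoding RNAs, Ftx alone fell on the mean gate difference, by 0.66 ± 0.17 (0.0471), lost in 10 of 12 runs without 1 library. Ftx averaged 2.23 CPM in asGM1+ and 5.10 CPM in asGM1- cells of Flt3L Panc02 tumours. Its Panc02 means were 3.42 and 3.74 CPM, and the gates overlap there. On the interaction 2 of these noncoding RNAs were called, both nuclear and abundant in most cells. Malat1 was at -2.08 ± 0.34 (adjusted p = 0.0265), with 196.2, 225.4 and 201.2 CPM in asGM1+ and 522.1, 443.8 and 413.4 CPM in asGM1- cells of Flt3L Panc02 tumours, and 694.5, 484.5 and 300.9 CPM in asGM1+ and 268.5, 216.8 and 291.2 CPM in asGM1- cells of Panc02 tumours. Neat1 was at -1.56 ± 0.28 (0.0459). The gate order of Malat1 is thus opposite in Flt3L Panc02 and Panc02 tumours, with no overlap in either, as is the sign of the fitted gate difference for Kcnq1ot1. Leaving out 1 library ended the calls of Cd300lf, Malat1 and Neat1 in 8, 10 and 10 of 12 runs.

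**Figure D4:**
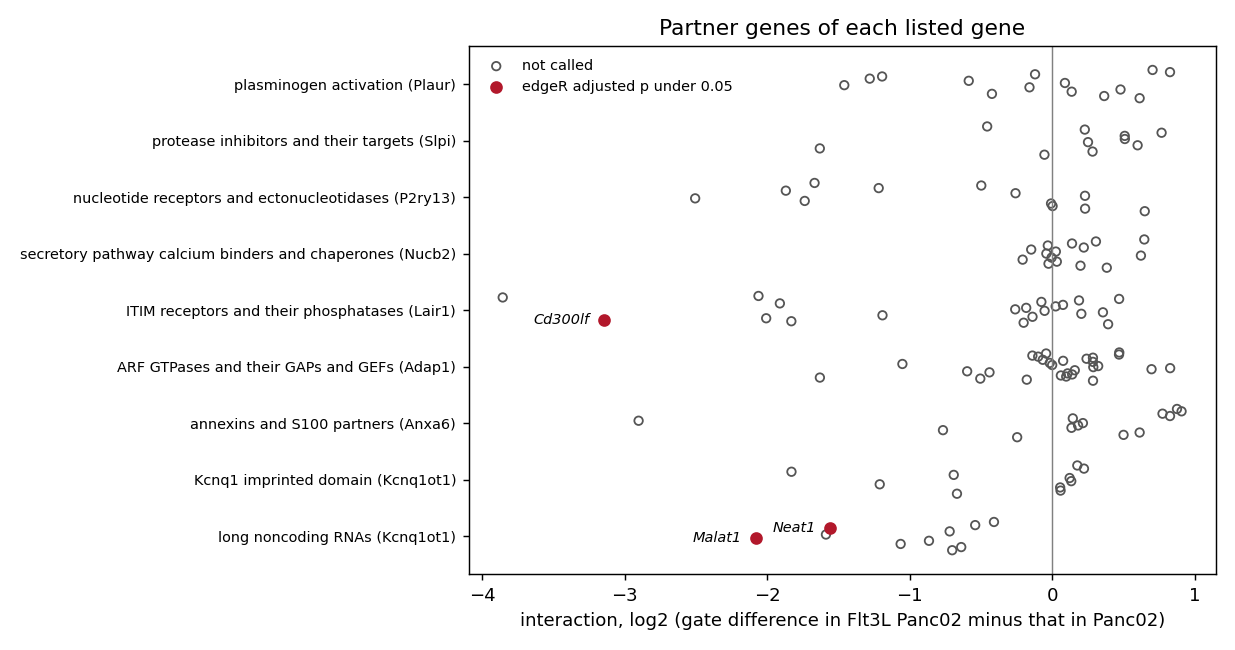
Interaction (x axis, log2) of 130 genes from the 9 partner lists, 1 row a list, with called genes filled in red and the others open. The 9 tested genes whose highest group mean was under 0.5 CPM are not drawn. The 3 called genes, Cd300lf, Malat1 and Neat1, lie at -3.15, -2.08 and -1.56.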

How the data were processed

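Bulk RNA-seq of 12 libraries was analysed, grouped and numbered as in their titles. The labels' protocols list TRIzol for extraction and name 2 kits, TruSeq mRNA and SMARTer ultra low input. HISAT2, StringTie and the mm39 build stand in the submitters' processing notes, without versions. The values the authors deposited are expected counts per gene, already whole numbers, for 56980 genes.

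edgeR 4.0.16 in R 4.3.3 was run on them: TMM factors, filterByExpr by group (20411 genes kept), and 1 quasi-likelihood model of 4 group means over the 12 libraries. A call is a Benjamini-Hochberg adjusted p under 0.05 over all genes kept. SE is an absolute log2 fold change over the square root of F. That fold change comes from a second fit without edgeR's prior count, so it can differ from the one printed. CPM uses TMM-scaled library sizes. The floor is 3 fragments of about 2.71 counts each (8.13 counts) and covers counting error only. DESeq2 1.42.0, limma 3.58.1 (voom), other scalings and filters, a replicate block and leaving libraries out were tried. The 8 genes, the gene lists and the tests were chosen with earlier results of these data known. Named partner genes are up to 3 called per list and contrast, by p. Named neighbours are the 5 nearest genes, without the 8 genes themselves, predicted gene models, T cell receptor or immunoglobulin segments, and genes of ribosomes or mitochondria. A neighbour of Adap1 and a marker gene are not reported here. Rank correlations were 0.973 to 0.984 within groups (0 identical columns) and 0.943 to 0.978 between groups. Same-numbered Panc02 libraries deviated together (r = 0.401, 0.365 and 0.379, each nearest to its own number), those of Flt3L Panc02 did not (0.0722, 0.568 and -0.0508), and the labels do not say what a number shares.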

Additional observations from a re-analysis of the deposited data

Results flagged for a closer look

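For the 8 genes the gate difference itself differed between the tumours, which is how they were chosen. The interaction was -3.44 for Plaur, -2.85 for Slpi, -3.56 for P2ry13, -2.67 for Nucb2, -2.24 for Lair1 and -1.64 for Kcnq1ot1 on the log2 scale, and 1.30 for Adap1 and 0.86 for Anxa6. These are descriptions with no test.

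Among the partner genes, 3 had a gate difference that differed between tumours by the edgeR test of the interaction: Cd300lf at -3.15 (adjusted p = 0.0244), Malat1 at -2.08 (adjusted p = 0.0265) and Neat1 at -1.56 (adjusted p = 0.0459). Over the other settings run, the adjusted p lay between 9.93e-08 and 0.0987 for Cd300lf, between 1.1e-06 and 0.108 for Malat1, and between 4.69e-05 and 0.155 for Neat1. Levels of Malat1 and Cd300lf in asGM1+ cells of Panc02 tumours were highest in replicate 1 and lowest in replicate 3, as were Csf1r and the macrophage sum, and the part of this in the calls was not tested.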

How the results depend on the processing

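The mean differences of the 8 genes are descriptions, since the values that chose the genes make them up. On the mean gate difference 7 passed the threshold, and 6 to 8 under the other settings: Kcnq1ot1 did not without both Panc02 libraries numbered 1, and Anxa6 did under both replicate blocks. The number of the 8 called on the mean tumour difference, 0, became 1 by DESeq2, by limma-voom and without both Panc02 libraries numbered 1, and 0 to 1 in the runs that left out 1 library each. The mean tumour difference of Slpi turned to 0.068 and that of Anxa6 to -0.014 without both Panc02 libraries numbered 1, and lay between -0.13 and 0.087 and between -0.013 and 0.083 in the runs without 1 library. No interaction of the 8 changed sign.

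The count of genes called on the interaction, 75, was 862 by DESeq2, 786 by limma-voom, 40 with no filter, 137 with a stricter filter, 135 with the replicate block, 204 with a block within each tumour type, 27 without both Panc02 libraries numbered 1, and 1 to 257 without 1 library. On the mean gate difference 1263 became 2342 by DESeq2, 2528 by limma-voom and 809 to 1589 without 1 library. On the mean tumour difference 2315 became 3558, 4860, 1317 without both Panc02 libraries numbered 1, and 1434 to 2914. Of the partner genes, 3 on the interaction became 16 by DESeq2, 14 by limma-voom, 1 with no filter, 5 with a stricter filter, 5 with the replicate block, 10 with the block within tumours, 1 without both Panc02 libraries and 0 to 11 without 1 library. The 17 on the mean gate became 28, 28, 9 with no filter, 27 with the block within tumours, 11 and 8 to 18, and the 33 on the mean tumour became 54 by limma-voom and 20 to 45. The cause of these shifts was not tested.

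Other scalings moved the median of all genes by between -0.0181 and 0.0111 on the log2 scale. Depth limits genes near the floor, Plau and Siglecg among those named.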
